A study of Homo sapiens with 6 samples.

Results

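Chromosome 19 carries long clusters of zinc finger genes, and their RNA was followed here in MRC5 cells, an established line of human fetal lung fibroblasts. The genes were chosen as the protein-coding genes of chromosome 19 with a symbol of ZNF, a number and at most 1 letter, and with 10 or more counts when the 6 libraries were added up. There were 232 such genes (hereafter chromosome 19 ZNF genes) among 246 with such a symbol and among 19072 genes tested. All MRC5 cultures were exposed for 24 h to conditioned media (CM) from ATII cells, an alveolar type II epithelial line engineered to respond to 4-hydroxytamoxifen (4-OHT). The control ATII CM group (3 libraries) received CM from cells without 4-OHT, and the 4-OHT ATII CM group (3 libraries) received CM from 4-OHT-treated cells. Both groups therefore shared the fibroblast line, the source line and the exposure time, and 4-OHT carried over in the CM cannot be told apart from what the treated cells secreted. The labels do not say whether replicates were separate cultures, so p-values measure the spread between these libraries, which may be technical.

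Proteins of this family typically read DNA with a row of C2H2 zinc fingers, each finger contacting a few bases. Many also carry an N-terminal KRAB domain, which binds TRIM28 (KAP1), a scaffold that brings the histone H3 lysine 9 methyltransferase SETDB1, HP1 proteins and the NuRD deacetylase complex to the bound site. KRAB zinc finger proteins are known for silencing transposable elements, and the family grew by tandem gene duplication, which left the genes in clusters of near copies.

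The libraries held 17691849 to 26389449 counts, with the fewest in control replicate 2, and 0.196% to 0.206% of them fell on the chromosome 19 ZNF genes. Fibroblast markers were abundant in every library (*COL1A1*, the collagen I chain, 16385 to 18347 CPM, the count scaled to a common library size). Markers of other cell types were near 0, with 4 counts in all for *CDH1*, 48 for *EPCAM*, 2 for *PTPRC*, 0 for *PECAM1* and 1 for *SFTPC*. Control replicate 2 stood apart from the other control libraries, since its counts departed from theirs by 6.03 and 5.27 times the sampling variance (chi-square over its degrees of freedom), against 2.12 between those libraries. Values without it are given beside several of the results below.

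A KRAB A-box pattern was found in the translated protein of 199 of the 232 genes and not in that of the other 33. The class rests on 1 coding sequence per gene, so genes with an atypical KRAB box may stand among the 33. Matches to a C2H2 finger pattern had a median of 12 per protein, from 1 in ZNF414 and ZNF428 to 31 in ZNF91, a repressor of SVA and LINE-1 elements. Fingers that depart from the pattern are not counted, so finger numbers here may be too low. Of the 232 genes, 216 lay in 10 clusters of at least 5 members, taking members as neighbours within 500 kb (positions are on GRCh38, as deposited). The median closest relative of a member, by protein, was 56.7% identical, and the closest pair, ZNF417 and ZNF587, shared 98.1% of 575 residues.

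RefSeq gave a start site on GRCh38.p14 for 207 of the 232 genes, and their promoters, 250 bases before to 50 bases after the start, shared letters that the choice of genes did not use. CCGGAAG, the core of many ETS family sites, was searched on both strands and was present in 44.9% of these promoters (93 of 207). It was present in 14.4% of 15306 protein-coding promoters of the same length, in 16.3% of those of other chromosome 19 genes and in 36.4% of those of ZNF genes on other chromosomes. In the 93 promoters there were 105 matches, which lay at a median of 18 bases before the start, and 89.5% began between 100 bases before and 50 bases after it. CCAAT was in 53.6% of chromosome 19 ZNF promoters, against 36.6% of all and 38.8% of other chromosome 19 promoters. TATAAA was in 1.93%, against 9.62% and 5.78%. GGGCGG, the Sp1-type box, was in 66.7%, above the 59.3% of all promoters and below the 77.7% of other chromosome 19 promoters. The CCGGAAG motif was in 48% of KRAB gene promoters and 28.1% of the others.

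The 120 bases before the start are shown for genes of the span from 19.7 to 24.1 Mb, where ZNF genes above and below the count threshold lie side by side. Capitals mark CCGGAAG or its reverse complement, and each sequence reads 5′ to 3′ on the strand of its gene.
ZNF493 (chr19:21397013-21397132, plus strand): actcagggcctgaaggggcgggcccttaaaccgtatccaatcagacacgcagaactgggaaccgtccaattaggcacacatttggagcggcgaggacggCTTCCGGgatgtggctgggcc
ZNF100 (chr19:21767580-21767699, minus strand): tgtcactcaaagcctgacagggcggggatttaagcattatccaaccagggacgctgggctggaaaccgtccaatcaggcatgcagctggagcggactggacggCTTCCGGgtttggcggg
ZNF85 (chr19:20923131-20923250, plus strand): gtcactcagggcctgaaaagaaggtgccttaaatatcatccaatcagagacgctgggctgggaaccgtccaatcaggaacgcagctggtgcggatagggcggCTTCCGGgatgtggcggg
ZNF208 (chr19:22010944-22011063, minus strand): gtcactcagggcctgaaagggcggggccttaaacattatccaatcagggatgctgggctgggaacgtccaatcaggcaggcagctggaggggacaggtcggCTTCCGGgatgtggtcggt
ZNF723 (chr19:22832171-22832290, plus strand): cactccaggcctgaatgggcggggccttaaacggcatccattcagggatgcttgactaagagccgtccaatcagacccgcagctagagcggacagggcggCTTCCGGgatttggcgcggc
ZNF493 and ZNF100 were measured at 3.79 and 0.119 mean CPM, whereas ZNF85, ZNF208 and ZNF723 had 0, 1 and 0 counts in all 6 libraries together. ZNF85, ZNF208 and ZNF723 were chosen with their counts known. Aligned end to end, the ZNF493 window was 72.6% identical to that of ZNF100, 76.4% to ZNF85, 78.0% to ZNF208 and 74.4% to ZNF723. The genes shown here, above and below the count threshold, thus shared a layout, with a CCAAT box followed by the capital motif close to the start. In this span CCGGAAG was in 18 of 26 member promoters and in 3 of 3 promoters of genes under 10 counts, and CCAAT was in 26 of 26 and 3 of 3. Those 3 are the genes shown, the only ones with a RefSeq promoter among 8 genes under 10 counts in the span. Over all symbols under 10 counts, CCGGAAG was in 5 of 9 promoters, and CCAAT in 5 of 9. A match is a description of the letters, not a bound site.

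Windows of genes from other clusters are shown for comparison, with the same marking. They are those of ZNF260, ZNF181, ZNF845 and ZNF548, the members with the smallest p in the higher direction described below that have a RefSeq promoter, and of ZNF587 from the closest protein pair.
ZNF181 (chr19:34734123-34734242, plus strand): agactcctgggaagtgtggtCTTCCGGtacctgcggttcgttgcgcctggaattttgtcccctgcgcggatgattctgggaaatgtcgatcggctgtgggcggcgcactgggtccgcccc
ZNF845 (chr19:53333629-53333748, plus strand): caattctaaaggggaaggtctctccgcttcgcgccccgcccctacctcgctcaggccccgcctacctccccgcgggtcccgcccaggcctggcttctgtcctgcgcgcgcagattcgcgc
ZNF548 (chr19:57389734-57389853, plus strand): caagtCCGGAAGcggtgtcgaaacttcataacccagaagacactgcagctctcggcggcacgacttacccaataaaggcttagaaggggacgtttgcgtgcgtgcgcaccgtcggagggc
ZNF587 (chr19:57849739-57849858, plus strand): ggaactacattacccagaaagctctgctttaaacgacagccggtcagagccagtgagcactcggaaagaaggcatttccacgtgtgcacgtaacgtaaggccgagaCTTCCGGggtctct
ZNF260 (chr19:36528272-36528391, minus strand): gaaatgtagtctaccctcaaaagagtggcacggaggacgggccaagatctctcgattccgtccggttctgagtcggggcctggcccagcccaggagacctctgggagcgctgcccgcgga
The ZNF493 window was 44.2% identical to that of ZNF260, 46.9% to ZNF181, 45.4% to ZNF845, 52.8% to ZNF548 and 52.3% to ZNF587. No match to the motif lies in the full ZNF260 promoter, and the match in the ZNF845 promoter lies outside the window shown. Members with CCGGAAG had a median level of 1.17 CPM per kb of exon (n = 93) and those without it 1.13 (n = 114), with overlapping middle ranges of 0.606 to 1.77 and 0.677 to 2.16.

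Chromosome 19 ZNF genes were transcribed at low levels in MRC5 cells. Their mean CPM over the 6 libraries had a median of 5.99 and ran from 0.0783 to 94.3, against a median of 21.4 over all 13859 protein-coding genes tested. Per kb of exon the median was 1.15 CPM, and it was 1.12 in KRAB genes and 3.27 in the 33 genes without the pattern. The highest levels per kb belonged to 5 genes without a KRAB pattern: *ZNF146* (chr19:36214602-36238774, a protein made of little but fingers) at 22.8 CPM per kb, *ZNF428* at 20.1, *ZNF580* at 15.9, *ZNF358* at 15.02 and *ZNF579* at 11.1. The exons of *ZNF146* overlap those of *ZNF565* on the opposite strand, *ZNF428* those of *SRRM5*, and *ZNF580* those of *CCDC106* and *ZNF581* on its own strand, so their reads may be shared.

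The level varied by cluster. The cluster from *ZNF492* to *ZNF254* (22.6 to 24.1 Mb, 8 members) had the lowest median, 0.16 CPM per kb, and the cluster from *ZNF628* to *ZNF71* (55.5 to 56.6 Mb, 15 members) the highest, 2.79 CPM per kb. Only 6 of the 15 members of the latter had a KRAB pattern, and their exons had a median GC content of 64.4% against 43.8% over all chromosome 19 ZNF genes. The 14 symbols under the count threshold were unevenly placed, since 8 of them, and 7 of the 8 with 0 counts, lay in the span from 19.7 to 24.1 Mb, which holds 37 of the 246 symbols, 2 clusters and the gap between them. How reads shared by near copies were counted is not given in the sources used here, so 0 counts need not mean absent RNA. In this span *ZNF98*, with 0 counts, matched 54.9% of the *ZNF492* transcript at 95% identity or more. Just inside the threshold were *ZNF709* with 11 counts and *ZNF100* with 15, and just outside it *ZNF541* with 6 and *ZNF177* with 2. Across members, the Spearman correlation of log2 CPM per kb was 0.29 with exon GC content and -0.14 with finger number (n = 232), and 0.26 between neighbours of a cluster (213 pairs). These are descriptions over genes that share libraries and, for neighbours, ancestry and base composition.

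**Figure D1:**
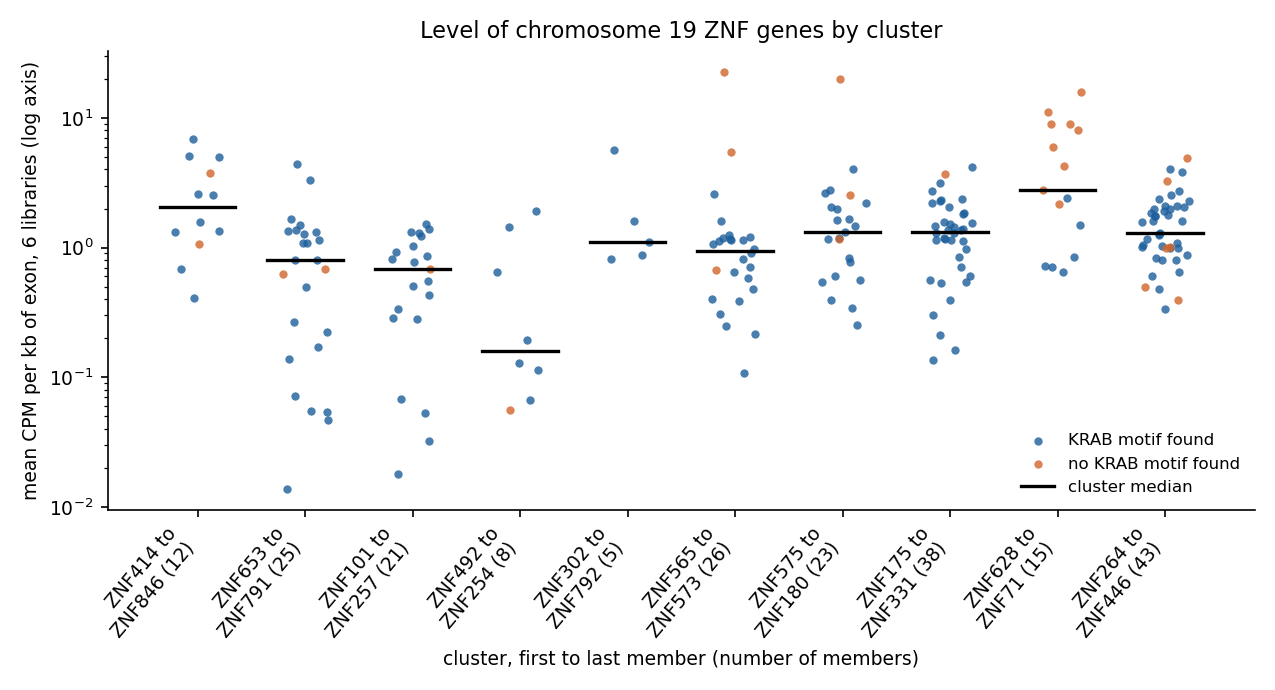
Mean level of each gene in CPM per kb of exon over the 6 libraries (log axis), by cluster from the p to the q end; points are genes, coloured by KRAB pattern, and lines are cluster medians. The median is lowest, 0.16, from ZNF492 to ZNF254 and highest, 2.79, from ZNF628 to ZNF71, where genes without the pattern are frequent.

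None of the chromosome 19 ZNF genes was a differentially expressed gene (DEG) in 4-OHT ATII CM versus control ATII CM. Across all genes 5.72% were DEGs (1090 of 19072, 563 upregulated and 527 downregulated, edgeR quasi-likelihood test with Benjamini-Hochberg adjustment), whereas 0 of 232 members passed, and the lowest adjusted p among them was 0.0604. DESeq2 and limma-voom also called 0. An unadjusted p under 0.05 was reached by 22 members with edgeR (18 higher and 4 lower, 9.48%), against 17.3% of all genes (8.72% higher and 8.61% lower) and 18.2% of 3922 protein-coding genes between the members' 10th and 90th percentiles of level (1.16 to 19.02 CPM). The share was 13.5% of the matched chromosome 19 genes and 10.6% of ZNF genes on other chromosomes, the nearest to that of the members. It was reached by 5 members with DESeq2 and 20 with limma-voom, against 11.6% and 17.4% of all genes in those fits. Within that range of level lay 184 members, of which 19 (10.3%) reached it, and 48 lay outside. The split with edgeR was 9 higher and 9 lower without control replicate 2 (9.36% and 10.1% of all genes), and 23 higher and 0 lower without control replicate 1 (7.81% and 8.01% of all genes). At the same threshold of adjusted p, 5.86% of those 3922 genes were called, 5.8% of the 1327 that also matched in exon length and GC content, 4.97% of the other 785 chromosome 19 protein-coding genes and 3.97% (5 of 126) of the chromosome 19 genes matched in level and length. ZNF genes of other chromosomes had 5 calls among 235 (2.13%). The members' share was thus below that of each of these lists. It was not tested as a share, since genes of 1 library are not independent. Another 14 chromosome 19 genes with other zinc finger symbols had 0 calls, and 1 of them (7.14%) had an unadjusted edgeR p under 0.05.

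The precision behind these values was as follows. The median standard error of log2 fold change was 0.12 for the members and 0.11 for the genes of that range of level, and the median biological coefficient of variation was 8.003% and 7.14%. For 193 of the 232 members the 95% interval of the difference lay within 1.5-fold in either direction, and for 212 within 2-fold. The 20 members under 1 CPM were not resolved, since 1 of them had an interval within 2-fold. The 66 members of at least 10 CPM all had intervals within 1.5-fold.

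**Figure D2:**
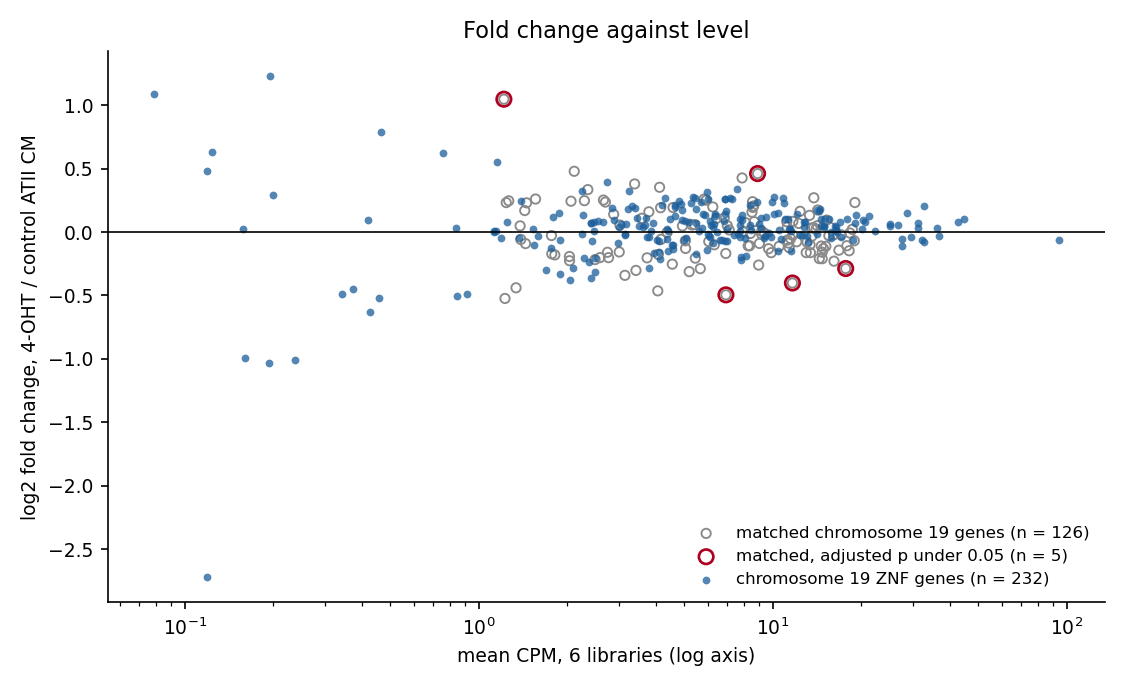
Log2 fold change (4-OHT over control ATII CM) against mean CPM over the 6 libraries (log axis) for the 232 chromosome 19 ZNF genes (filled) and the 126 matched chromosome 19 genes (open); red rings mark the 5 matched genes with an adjusted p under 0.05. No ZNF gene is ringed, and the widest scatter is among members under 1 CPM.

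As a group the members lay slightly higher in 4-OHT ATII CM. The median log2 fold change was 0.04, with a middle range of -0.05 to 0.13, and 146 of 232 were above 0 (62.9%). Over all genes tested the median was -0.0020 with 49.5% above 0, over the matched chromosome 19 genes -0.02, over the 1327 genes of like level, length and GC content 0.0093, and over ZNF genes of other chromosomes 0.02. The difference of medians between members and matched chromosome 19 genes was 0.06. Matching within the members' middle ranges (36 genes) gave a median of -0.04. The 135 chromosome 19 genes nearest to members in level and length had a median of 0.00093. Without 4-OHT replicate 1 the difference was 0.04, with a matched median of 0.0051. With libraries thinned to the smallest it was 0.04, the members' median was 0.05 and 66.2% of 231 members were above 0. Without control replicate 2 the members' median was 0.02, 124 of 232 members (53.4%) were above 0 and the difference of medians was 0.03. The lean was thus smaller on each measure without that library.

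The same was visible library by library. The median deviation of the members from their 6-library mean log2 CPM was 0.02, -0.06 and -0.0084 in control replicates 1 to 3 and 0.02, 0.04 and 0.03 in 4-OHT replicates 1 to 3. Control replicate 2 was the low library, and control replicate 1 lay close to the 4-OHT libraries. The summed level of the 232 genes was 2042, 1941 and 2026 CPM in control ATII CM (2003 ± 54.0, SD, n = 3) and in 4-OHT ATII CM 2053, 2072 and 2063 CPM (2063 ± 9.16, SD, n = 3), a ratio of 1.03 (1.01 without control replicate 2). In bulk RNA, a different number of expressing cells and a different amount of RNA per cell cannot be told apart. The ranges did not overlap, though control replicates 1 and 3 lay nearer to the 4-OHT libraries than to control replicate 2.

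Genes with and without a KRAB pattern had different medians, a difference that was not tested. The 199 KRAB genes had a median log2 fold change of 0.05 (131 above 0), and the 33 others of -0.03 (15 above 0). Without control replicate 2 these medians were 0.03 and -0.03, without 4-OHT replicate 3 they were 0.05 and 0.01, and with libraries thinned to the smallest 0.06 and 0.0083. The summed level of the KRAB genes was 1455, 1358 and 1422 CPM against 1470, 1471 and 1474 CPM, whereas that of the others was 587, 583 and 604 CPM against 583, 601 and 589 CPM, with overlapping ranges. Without control replicate 2 the ratios of these sums, 4-OHT over control, were 1.02 and 0.993. The 73 genes of the p arm had a median of 0.07 and the 159 of the q arm 0.04, and without control replicate 2 both were 0.02. All 10 clusters had a median above 0, the lowest of them 0.0010. This held for 6 of 10 without control replicate 2, for 8 of 10 without control replicate 3, and for 9 of 10 with DESeq2, limma-voom, RLE scaling, library totals, filterByExpr or the offset for GC content and length. The Spearman correlation of log2 fold change between neighbours of a cluster was -0.09 (213 pairs). Base composition moved with these values, since among 851 chromosome 19 protein-coding genes of at least 1 CPM the Spearman correlation of log2 fold change with GC content was -0.13. It was -0.06 without control replicate 2. The KRAB genes had a median exon GC content of 43.6%, the others 61.8% and the matched genes 60.8%. With an offset for GC content and length the members' median was 0.04 and its difference from the matched genes 0.05. With that offset the median was 0.045 for the KRAB genes and -0.019 for the others, against 0.053 and -0.033 without it. The part of base composition in the lean was not tested further.

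**Figure D3:**
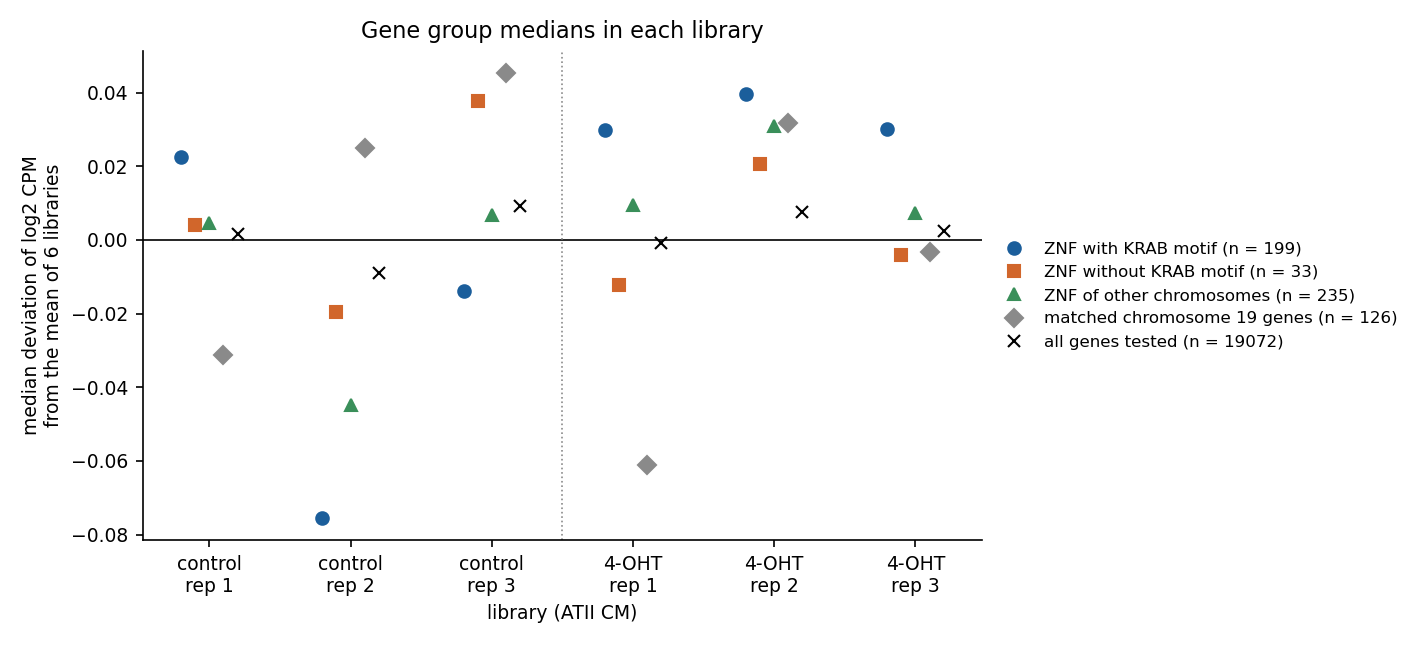
Median deviation of log2 CPM from the 6-library mean in each library, for chromosome 19 ZNF genes with and without a KRAB pattern, ZNF genes of other chromosomes, matched chromosome 19 genes and all genes tested. Control replicate 2 holds the lowest KRAB value, -0.08, and all 3 4-OHT libraries lie between 0.03 and 0.04.

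Groups did not overlap for 39 members, 33 of them higher and 6 lower in 4-OHT ATII CM (16.8%). The share was 22.1% over all genes, 23.5% over genes of that range of level, 18.3% over matched chromosome 19 genes and 15.3% over ZNF genes of other chromosomes. For the higher direction alone it was 14.2%, against 11.7%, 10.8%, 7.14% and 11.1%, and 14% over all protein-coding genes. Without control replicate 2 the groups did not overlap for 66 members, 41 higher and 25 lower (28.4%), against 34.7% of all genes and 35.6% of those of that range of level.

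The members nearest to a call were described individually. *ZNF260* (chr19:36510695-36528660, without a KRAB pattern, described as a cofactor of GATA4 in heart muscle) was at 27.7, 32.1 and 31.3 CPM in control ATII CM and at 36.2, 35.05 and 33.5 CPM in 4-OHT ATII CM. All 4-OHT libraries were above all control libraries, by a narrow margin. Its log2 fold change was 0.20 ± 0.06 (SE) with an edgeR adjusted p of 0.0604, and without control replicate 2 it was called at an adjusted p of 0.0183. With no filter on low counts the adjusted p was 0.00643. *ZNF181*, a KRAB gene, was at 9.60, 8.23 and 9.40 CPM against 11.6, 10.4 and 11.1 CPM, again without overlap (log2 fold change 0.28 ± 0.09, SE, edgeR adjusted p = 0.102).

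*ZNF845*, whose protein has 26 matches to the finger pattern, was at 6.61, 6.72 and 6.71 CPM in control ATII CM and at 9.73, 8.501 and 7.15 CPM in 4-OHT ATII CM. The control libraries agreed closely and the spread was among the 4-OHT libraries (log2 fold change 0.34 ± 0.12, SE, edgeR adjusted p = 0.122). Without 4-OHT replicate 3, the nearest to the controls, the adjusted p was 0.0494, and with no filter on low counts it was 0.0495. *ZNF548* was at 10.7, 9.91 and 8.78 CPM against 10.9, 12.1 and 12.3 CPM, and *ZNF738* at 5.76, 5.60 and 4.63 CPM against 6.94, 6.46 and 6.51 CPM. In both genes the groups did not overlap, and the edgeR adjusted p was 0.124 and 0.15.

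The 5 members of smallest p in the lower direction included none above 10 CPM. *ZNF77* was at 2.58, 2.69 and 2.87 CPM in control ATII CM and at 2.06, 2.00 and 2.25 CPM in 4-OHT ATII CM, for which the log2 difference was -0.37 ± 0.17 (SE, edgeR adjusted p = 0.266). *ZNF837* was at 2.30, 2.35 and 2.29 CPM against 1.64, 1.89 and 1.79 CPM (log2 difference -0.38 ± 0.18, SE, edgeR adjusted p = 0.281). Neither gene's groups overlapped. *ZNF180* was at 8.39, 7.90 and 8.78 CPM against 7.49, 6.496 and 7.61 CPM, without overlap (edgeR adjusted p = 0.285), and *ZNF493* at 4.26, 3.81 and 4.41 CPM against 3.01, 3.89 and 3.35 CPM, with overlap (edgeR adjusted p = 0.339). *ZNF100* had 10, 3 and 0 counts in the control libraries and 0, 1 and 1 in the 4-OHT libraries, which is too few to give a fold.

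**Figure D4:**
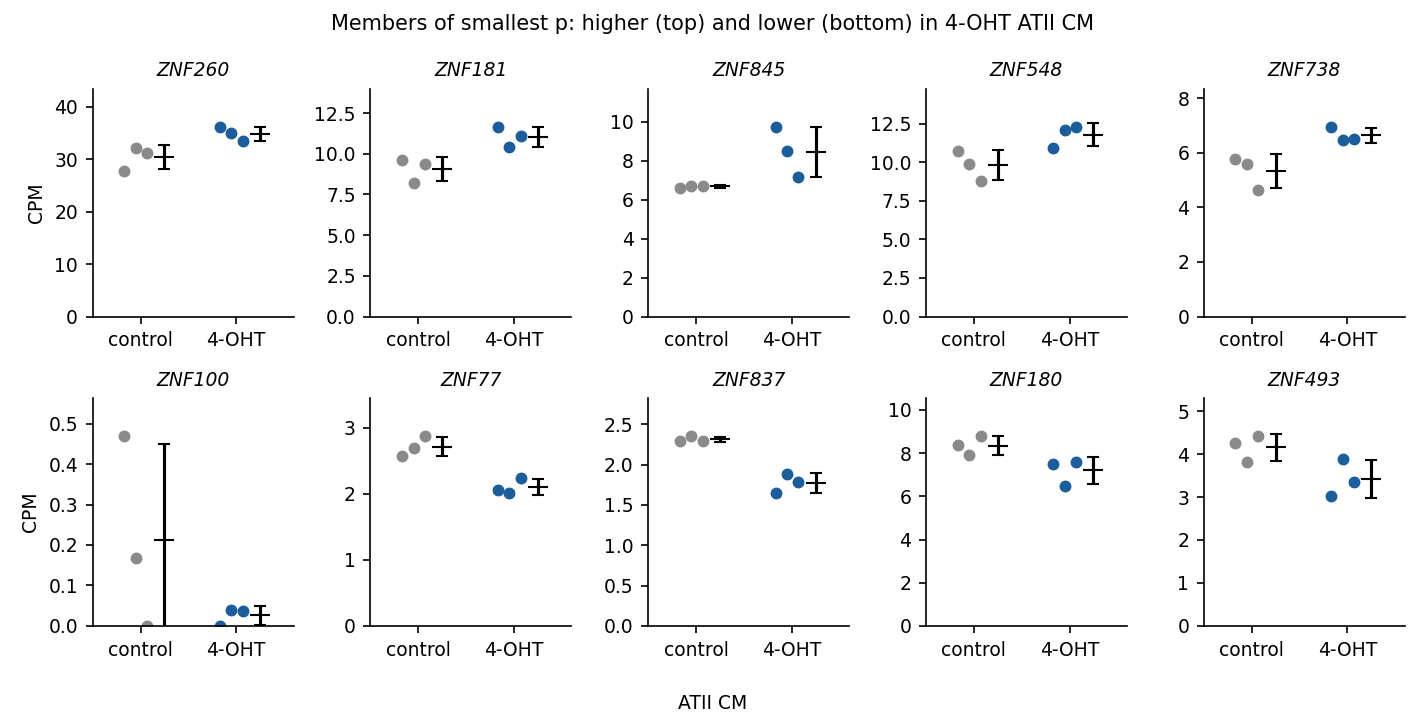
CPM in each library (points) with group mean and SD (bars, cut at 0), n = 3 per group, for the 5 members of smallest p in each direction. ZNF260 sits at 27.7 to 32.1 CPM in control and 33.5 to 36.2 CPM in 4-OHT ATII CM, and in ZNF493 and ZNF100 the groups overlap.

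The largest log2 differences among members of at least 1 CPM were small in absolute terms. *ZNF578* was at 1.22, 0.784 and 0.794 CPM in control ATII CM and at 1.74, 0.762 and 1.64 CPM in 4-OHT ATII CM, with 4-OHT replicate 2 below every control library (log2 difference 0.55 ± 0.32, SE, edgeR adjusted p = 0.414). *ZNF418* was at 2.81, 2.02 and 2.21 CPM against 3.38, 3.09 and 2.85 CPM (0.40 ± 0.17, SE, edgeR adjusted p = 0.247). *ZNF837*, *ZNF77* and *ZNF845* completed the 5. In all, 10 members had an estimate of 1.5-fold or more, 8 of them on the p arm, and all but 2 of the 10 had fewer than 60 counts over the 6 libraries.

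The 5 members of highest level per kb had the following values. *ZNF146* was at 97.2, 92.6 and 99.4 CPM in control ATII CM and at 93.6, 93.3 and 89.98 CPM in 4-OHT ATII CM (log2 difference -0.06 ± 0.04, SE, edgeR adjusted p = 0.455). *ZNF579* was at 36.5, 37.4 and 37.8 CPM against 35.3, 37.5 and 36.3 CPM. The groups overlapped in both, and the 95% interval of the log2 difference was -0.15 to 0.02 and -0.13 to 0.07. *ZNF580*, *ZNF358* and *ZNF428* had intervals of -0.04 to 0.19, -0.06 to 0.21 and -0.12 to 0.18.

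Members with a known function were looked up by that function, with the results known. *ZNF91* was at 14.6, 14.2 and 15.2 CPM against 14.7, 15.4 and 15.1 CPM (log2 difference 0.04 ± 0.07, SE). *ZNF93*, a repressor of LINE-1 elements, was at 2.30, 2.35 and 2.38 CPM against 2.56, 2.33 and 2.51 CPM. *ZNF274*, which brings SETDB1 to the 3′ ends of zinc finger genes, was at 17.2, 14.6 and 17.6 CPM against 16.03, 16.5 and 17.1 CPM. *ZNF473*, a part of the machinery that processes histone pre-mRNA, was at 7.45, 7.11 and 7.99 CPM against 7.76, 8.94 and 8.03 CPM. The groups overlapped in all 4, and none was called (edgeR adjusted p between 0.568 and 0.998).

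The closest protein pair, ZNF417 and ZNF587, was expressed at unequal levels. *ZNF417* (chr19:57900296-57916610) was at 4.54, 4.09 and 4.81 CPM against 7.08, 3.97 and 4.79 CPM, a pattern set by 4-OHT replicate 1, since the log2 difference of 0.22 ± 0.18 (SE) became -0.03 without it. *ZNF587*, 35.2 kb away, was at 14.3, 14.3 and 14.1 CPM against 13.9, 13.1 and 15.1 CPM. Per kb of exon *ZNF587* was at 1.92 CPM and *ZNF417* at 1.16 CPM, a ratio of 1.66. How reads common to such copies were split is not given in the sources used here, and the exons of *ZNF587* overlap those of *ZNF814*. Of all members, 84 shared exonic bases with another gene, 54 of them on the opposite strand, and the library kit named in the labels does not mark strand. The 148 members without such overlap had a median log2 fold change of 0.05, the 84 with it 0.02 and the 54 with opposite-strand overlap -0.01 (26 above 0), with 0 calls in each. Without control replicate 2 these medians were 0.03, -0.0050 and -0.0086.

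The partners of KRAB zinc finger proteins were read from the same fit. Of a list of 31 co-repressor and heterochromatin genes 30 were tested, and 3 were downregulated (10%) and 0 upregulated, against 2.76% and 2.95% of all genes. The list lay at a higher level than all genes tested (median 53.4 against 8.54 CPM). Over the 13859 protein-coding genes tested (median 21.4 CPM), 508 were downregulated and 544 upregulated, 7.59% together. The list's median log2 fold change was -0.03, with 12 above 0 and 18 below, and -0.06 without control replicate 2, with 13 above and 17 below. *UHRF1*, which recognises hemimethylated DNA, was at 58.2, 64.5 and 57.7 CPM in control ATII CM and at 50.2, 46.6 and 51.4 CPM in 4-OHT ATII CM. *DNMT1*, the maintenance DNA methyltransferase that UHRF1 brings to newly copied DNA, was at 107.9, 102.7 and 104.0 CPM against 91.4, 89.4 and 92.5 CPM. *CBX5*, which encodes HP1 alpha, was at 89.1, 85.4 and 92.4 CPM against 82.9, 73.9 and 78.0 CPM. In each of the 3 genes every 4-OHT library was below every control library. The log2 fold changes were -0.28 ± 0.05, -0.20 ± 0.04 and -0.19 ± 0.05 (SE), and the edgeR adjusted p-values 0.00339, 0.00364 and 0.0243. Over the list the groups did not overlap for 8 of 30 genes (26.7%), 4 higher and 4 lower. The share was 22.1% over all genes and 26.02% over protein-coding genes. The higher ones were *RESF1*, *RBBP4*, *SMARCAD1* and *HDAC1*. *SUV39H1* was the other lower one and was not called (log2 difference -0.39 ± 0.14, SE, edgeR adjusted p = 0.155).

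*TRIM28*, the KRAB-binding scaffold itself, was at 241.9, 282.6 and 260.2 CPM in control ATII CM and at 242.7, 239.5 and 239.6 CPM in 4-OHT ATII CM. Control replicate 1 lay among the 4-OHT libraries, and the gene was not called (log2 difference -0.12 ± 0.05, SE, edgeR adjusted p = 0.162). Without that library it was called at an edgeR adjusted p of 0.0280. This was 1 of 17 other settings, over which its log2 difference ran from -0.175 to -0.0615, and *TRIM28* was called in no other. *SETDB1* was at 22.2, 18.9 and 25.02 CPM against 20.7, 20.2 and 21.2 CPM, with overlap (edgeR adjusted p = 0.616). *CBX5* fell short of the threshold in 5 of 17 other settings. Its edgeR adjusted p was 0.136 and 0.0881 without 4-OHT replicates 2 and 3, 0.0624 and 0.125 without control replicates 1 and 3, and 0.0575 with the replicate block and an offset for GC content and length. *UHRF1* and *DNMT1* stayed called in all 17. Without control replicate 2 the number of called genes of the list was 8, of which 7 were lower (*CHD4*, *CHD3*, *ATF7IP* and *ATRX* added) and 1 higher (*RBBP4*), and 8.19% of all genes were called. *RESF1*, a partner of SETDB1, was at 14.4, 15.1 and 15.2 CPM in control ATII CM and in 4-OHT ATII CM at 18.6, 15.9 and 19.4 CPM. Its groups did not overlap (log2 difference 0.27 ± 0.08, SE, edgeR adjusted p = 0.0706), and it was called as higher with no count filter (adjusted p = 0.0134) and without 4-OHT replicate 2 (0.0256). *EHMT1* was called as higher with the offset for GC content and length (adjusted p = 0.0383). *EHMT2* was not tested, with 1 count in all, and *DAXX* was at 0.728 mean CPM.

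**Figure D5:**
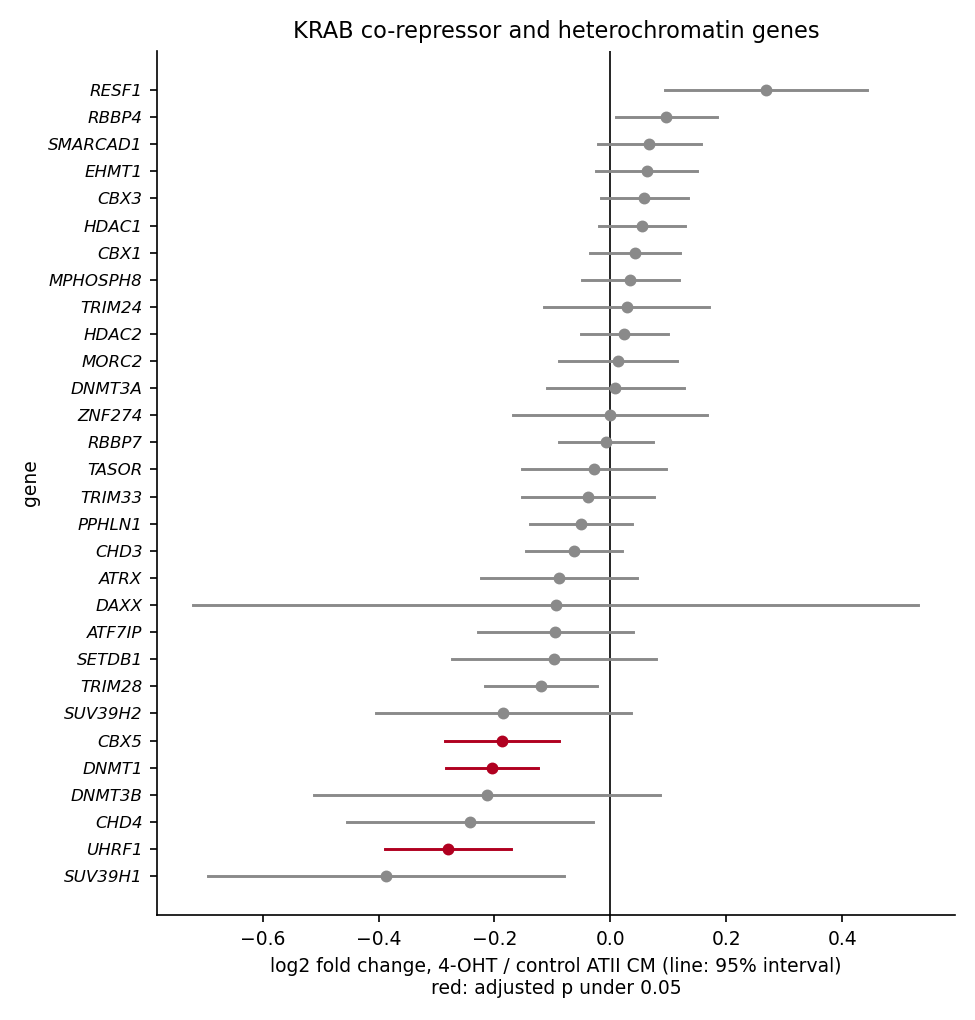
Log2 fold change (4-OHT over control ATII CM) with 95% interval for the 30 co-repressor and heterochromatin genes tested, ordered by fold change; red marks an adjusted p under 0.05. UHRF1, DNMT1 and CBX5 are the 3 red genes, at -0.28, -0.20 and -0.19, and the interval of DAXX is wide at its low level.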

How the data were processed

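Polyadenylated RNA of 6 MRC5 libraries (3 per group) was sequenced. The authors mapped the reads to GRCh38 with HISAT2 2.1.0 and counted them with featureCounts 1.6.5, and the deposited values are raw counts per gene. The annotation release and strand setting are not given in the sources used here. Genes with at least 10 counts in all were tested with edgeR 4.0.16 (quasi-likelihood, TMM, group only) at a Benjamini-Hochberg adjusted p under 0.05. R 4.3.3, DESeq2 1.42.0 and limma 3.58.1 served for alternatives, and the code was tested on simulated data. Names, types and coding sequences came from GENCODE release 44, promoters from RefSeq (GRCh38.p14). KRAB and finger patterns were searched in proteins translated from that annotation (RefSeq proteins, planned for this step, were not used here), and identities came from BLAST 2.17.0. CPM are TMM-scaled. Matched chromosome 19 genes lay between the 10th and 90th percentiles of the members' level and exon length. Clusters joined members within 500 kb. Named were the members highest per kb (5), with the largest difference (5) and the smallest p (5 per direction), those beside the count threshold, the closest protein pair and called co-repressors with TRIM28 and SETDB1. The members and lists were chosen with earlier results of these data known. The transgene of the ATII line is not reported here.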

Additional observations from a re-analysis of the deposited data

How the results depend on the processing

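No chromosome 19 ZNF gene was called in 15 of 18 settings, the reported fit included. Without a count filter 2 were called (*ZNF260* and *ZNF845*, both higher), against 5.77% of all genes in that setting, and leaving out 1 library in turn gave 0 to 1. Over the same omissions the number of DEGs among all genes ran from 533 (without 4-OHT replicate 2) to 1530 (without control replicate 2), and that of co-repressor list genes from 2 to 8. The share of clusters with a median above 0 ran from 60% to 90%.

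Leaving out 1 library moved the median log2 fold change of the genes without a KRAB pattern between -0.0429 and 0.0144 and that of p arm genes between 0.0153 and 0.0651. Cluster medians ran from 0.0394 to 0.137 for ZNF101 to ZNF257, from 0.0197 to 0.0596 for ZNF175 to ZNF331, from 0.0494 to 0.0682 for ZNF414 to ZNF846, from -0.0883 to 0.0447 for ZNF492 to ZNF254, from -0.00464 to 0.134 for ZNF575 to ZNF180, and from -0.0305 to 0.0280 for ZNF628 to ZNF71. With edgeR's filterByExpr, which tests fewer genes, the ZNF101 to ZNF257 median was 0.124. With libraries thinned to the smallest, medians were 0.00833 without a KRAB pattern, 0.0955 for ZNF414 to ZNF846 and 0.101 for ZNF575 to ZNF180. Leaving out 1 library turned the sign of 27 to 34 members. Among the genes named by the rule, 4 uncalled ones turned: *SETDB1* ranged from -0.189 to 0.000427 (positive without control replicate 3), *ZNF417* from -0.0304 (without 4-OHT replicate 1) to 0.388, *ZNF428* from -0.0659 (without control replicate 1) to 0.120, and *ZNF587* from -0.0757 to 0.0294 (positive without 4-OHT replicate 2). The causes were not tested.

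The labels number replicates alike in both groups, but same-numbered libraries did not deviate together (Pearson r of -0.01, -0.10 and -0.09 over 9691 genes), so the numbers were not taken as pairs. With the replicate block, 985 genes, 0 members and 3 co-repressor genes were called, and the members' median was 0.04. With the replicate block and the GC and length offset, 1188 genes were called. Limits were few counts for members under 1 CPM, 3 libraries per group, and reads that near copies and overlapping genes may share.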
